A study of Mus musculus with 10 samples.

Results

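Oxidative phosphorylation is carried out by 5 protein complexes of the inner mitochondrial membrane, and the genes described here are their nuclear-encoded subunits. They were chosen by symbol: names that begin with Ndufa, Ndufb, Ndufc, Ndufs or Ndufv and a digit, Sdha to Sdhd, names that begin with Uqcr, Cox4 to Cox8 or Atp5, and no name that ends in -ps. The rule found 78 of the 12535 genes in the table: 37 of complex I, 4 of complex II, 8 of complex III, 13 of complex IV and 16 of complex V. No name was left out for the ending -ps, and all 78 genes passed the minimum for testing, 3 or more libraries with an FPKM of 1 or more. FPKM are read counts divided by gene length and by library depth. The rule also took 2 genes, Atp5s and Atp5sl, that are named after ATP synthase but are not subunits of it, and these are counted under complex V.

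Complexes I and II take electrons from NADH and from succinate, complex III passes them to cytochrome c, complex IV reduces oxygen, and complex V (ATP synthase) makes ATP from the proton gradient that complexes I, III and IV build. Subunits are made from nuclear and from mitochondrial genes, so assembly depends on matched supply from both genomes; the mitochondrially encoded subunits are not analysed here. In macrophages, classical inflammatory activation is known to lower mitochondrial respiration and to make succinate build up, while alternative activation relies on oxidative metabolism.

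RNA came from mouse cells sorted as CD45+CD11b+F4/80+, the surface markers of leukocytes, myeloid cells and macrophages. Resident macrophages (n = 4) came from healthy pancreas (genotype C57/BL6 WT). Tumour-associated macrophages (TAM) were from pancreatic tumours that had grown for 14 days after orthotopic implantation of the KPC organoid line MT4, in mice of genotype C57/BL6 Ahr fl/fl (n = 3, control TAM) or of that genotype with the added label Lys M (n = 3, cKO-labelled TAM). Lys M is taken to be Cre recombinase driven from the Lyz2 locus, which acts in macrophages, monocytes and neutrophils. Resident macrophages thus differ from both TAM groups in tumour and in genotype, and the effects of those cannot be told apart. The labels do not say whether libraries of a group came from separate mice, so each p-value measures only the spread between these libraries.

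The Ahr transcript, the target of the deletion, was at 3.84 to 4.46 FPKM in resident macrophages, 6.91 to 7.51 in control TAM and 9.64 to 11.2 in cKO-labelled TAM. Such a value, over the whole gene, does not resolve the floxed part and shows no loss, so the name cKO-labelled rests on the labels alone. Depth, as reads recovered from the FPKM, was lowest in control TAM replicate 2, at 10312567, and highest in cKO-labelled TAM replicate 3, at 26455206. All 10 listed macrophage markers, Adgre1, Csf1r, Cd68 and C1qa among them, were present, with a summed FPKM of 34410 to 35310 in resident macrophages, 24620 to 24710 in control TAM and 16140 to 16500 in cKO-labelled TAM. Most of this was Lyz2, the gene that is taken to carry the Cre, and the other 9 markers summed to 6626 to 6918, 4722 to 4810 and 4775 to 4907. Single markers went both ways. Mean FPKM of Fcgr1 was 46.4, 119 and 124 in the 3 groups, and that of Csf1r was 1238, 534 and 454. Transcripts known from other cell types were present: pancreatic acinar genes (17 of 17 in the table) summed to 32880 to 34980, 110 to 118 and 417 to 436 FPKM in the 3 groups, neutrophil genes (8 of 10) to 1.41 to 2.38, 1214 to 1241 and 1463 to 1625, and epithelial genes (9 of 10) to 9.55 to 11.2, 272 to 279 and 276 to 290. Summed FPKM of fibroblast genes was 37.5 to 41.2, 162 to 165 and 123 to 128, of dendritic cell genes 117 to 131, 19.6 to 20.8 and 45.9 to 47.0, of eosinophil genes 0.526 to 1.19, 69.2 to 72.1 and 95.9 to 100.3, and of B, T and natural killer and endothelial cell genes at most 48.1 in any library. The acinar gene Amy2a5 was listed at 0 in all control TAM libraries and the eosinophil gene Prg2 at 0 in all resident libraries. The neutrophil sum in TAM was mostly Retnlg, at 1150 to 1179 and 1336 to 1491 FPKM. The dendritic cell sum, from 4 of 7 listed genes, was mostly Cd209a, at 111 to 126, 16.9 to 18.4 and 42.8 to 44.3. The gate would leave out acinar, epithelial and fibroblast cells, and the source of these transcripts was not tested. In bulk RNA fewer cells of a type and less RNA per cell cannot be told apart.

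Promoter sequence was found for 63 of the 78 genes (68 promoters of 300 bases, from 250 before to 50 after the start; RefSeq, GRCm38.p6). Nuclear respiratory factor 1 (NRF1) is a transcription factor known to bind many respiratory chain promoters, at sites close to GCGCA, any base and GCGC in a row. On either strand these letters occurred in 25% of the 68 promoters, in 10.2% of the promoters of tested genes and in 4.6% of all 32851 promoters in the table. The ETS core CCGGAAG, which GABP binds, occurred in 23.5%, 18.1% and 8.9%, and the YY1 letters AAGATGGC in 13.2%, 4.7% and 2.7%. The letters TCAAGGTCA of the estrogen-related receptors (ERR) occurred in 2.9%, 0.3% and 0.4%, with the first value from 2 promoters. The hypoxia response core ACGTG occurred in 22.1%, 25.7% and 19.6%, and the core GCGTG of the aryl hydrocarbon receptor in 54.4%, 50.1% and 32.4%. With C as its free base the NRF1 site holds the aryl hydrocarbon receptor core on the other strand, as in the Atp5c1 promoter. The shares of these motifs are thus not independent. Apart from that none of the motifs contains another, and a match describes letters only. The sequences printed here are 70 or 80 bases of 5 promoters. In Sdha (chr13:74350281-74350350, minus strand), whose gene was lower in TAM, the window holds 2 NRF1 matches, and another lies outside it at -10. In Cox6a1 (chr5:115349049-115349128, minus strand), whose gene was higher, the window holds 2 matches. Atp5k (chr5:108434440-108434509, minus strand) is the complex V gene with the largest rise between the TAM groups. The other pair belongs to Ndufa4 (chr6:11907491-11907560, minus strand), which moved against the rest and has no match in its window, and to its relative AA467197 (chr2:122637777-122637846, plus strand). All lie before the RefSeq start of their gene. In the GENCODE annotation 9 bases of the Atp5k window and 7 of the Ndufa4 window lie in an annotated exon, and the AA467197 window lies within the wider bounds of its gene but in no exon. Capitals mark the NRF1 letters, and in AA467197 the ACGTG letters, which lie there on both strands.
Sdha: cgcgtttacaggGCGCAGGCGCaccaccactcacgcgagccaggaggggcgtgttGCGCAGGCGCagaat
Cox6a1: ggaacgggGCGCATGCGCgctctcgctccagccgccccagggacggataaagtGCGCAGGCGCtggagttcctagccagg
Atp5k: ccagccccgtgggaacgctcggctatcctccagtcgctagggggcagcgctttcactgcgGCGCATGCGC
Ndufa4: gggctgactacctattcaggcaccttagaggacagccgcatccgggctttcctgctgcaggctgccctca
AA467197: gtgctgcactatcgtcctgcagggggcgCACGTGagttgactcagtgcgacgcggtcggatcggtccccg

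The comparison of control TAM with resident macrophages asks how transcripts of the respiratory chain differ between macrophages of the tumour and of the healthy organ. Subunits of all 5 complexes were higher in control TAM: 68 of 78 genes rose and 4 fell with an adjusted p below 0.05 (log2(FPKM + 1) fitted by limma, with Benjamini-Hochberg adjustment over 11127 genes). The background was high, since 77.1% of all tested genes were called, 39.0% as higher and 38.1% as lower. The members' calls went one way while those of all genes were split about evenly. The median log2 change was 0.41 over the members and 0.00 over all tested genes. For 66 members the ranges of the 2 groups did not overlap, against 73.9% of tested genes. Changes were modest, and 21 of the 68 rises reached 1.5-fold. By complex, 32 rose and 1 fell of 37 in complex I (median log2 change 0.38), 3 rose and 1 fell of 4 in complex II (0.30), 8 of 8 rose in complex III (0.44), 11 rose and 1 fell of 13 in complex IV (0.48), and 14 rose and 1 fell of 16 in complex V (0.57). The 4 genes that fell were Ndufa4, Sdha, Cox6b2 and Atp5sl. Each complex kept a median above 0 under 4 other scalings and with the trend on transcript length removed. For this removal the length was that of the longest annotated transcript of each gene. With that trend removed, 59 members were higher and 9 lower, and with library totals taken without the acinar genes 71 were higher and 3 lower.

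In complex I, the NADH dehydrogenase, 26 of 30 accessory subunits and 6 of 7 core subunits, which carry the redox centres, were higher in control TAM. The median log2 change was 0.39 over accessory and 0.32 over core subunits. The accessory genes, counted by the rule, include Ndufa4, which fell and is placed in complex IV today, and its paralogue Ndufa4l2, which rose. Without this pair 31 of 35 complex I genes were higher and 0 lower, with a median of 0.38. The largest rise among genes of the complex at 10 FPKM or more was that of Ndufc1, a small accessory subunit of the membrane arm. In resident macrophages it was at 18.6, 17.7, 17.2 and 20.1 FPKM, against 34.0, 31.1 and 35.8 in control TAM and 29.3, 38.2 and 35.7 in cKO-labelled TAM (control TAM against resident: log2 change 0.84 ± 0.08 (SE), adjusted p = 6.17e-08 by limma with Benjamini-Hochberg adjustment). Every TAM library was above every resident library, and the TAM groups overlapped. The most abundant subunit on the FPKM scale was Ndufa1, an accessory subunit encoded on the X chromosome, with 144, 136, 155 and 151 in resident macrophages, 203, 210 and 241 in control TAM and 236, 275 and 255 in cKO-labelled TAM. It rose by 0.57 ± 0.06 in control TAM (adjusted p = 3.56e-07), again with no overlap with the resident group. Ndufb6 (0.79), Ndufs4 (0.78), an accessory subunit mutated in Leigh syndrome, and Ndufv3 (0.67) were the next largest rises. Of the core subunits, Ndufs1, the largest subunit, rose from 30.7 ± 2.44 to 40.2 ± 2.59 FPKM (mean ± SD, n = 4 and 3). Ndufs7, the core subunit with the last iron-sulphur cluster before ubiquinone, was not called (131 ± 6.96 and 127 ± 1.38 FPKM, log2 change -0.05). Ndufa3, Ndufa7 and Ndufb10 were not called either, with log2 changes of 0.24, 0.03 and -0.07.

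Complex II, succinate dehydrogenase, was split between its subunits. Sdhd, a membrane anchor, was at 151, 151, 147 and 154 FPKM in resident macrophages, 223, 227 and 223 in control TAM and 230.0, 232 and 238 in cKO-labelled TAM. It rose by 0.57 ± 0.03 in control TAM (limma adjusted p = 2.33e-11), and the 3 groups did not overlap. Sdha, the flavoprotein that oxidizes succinate, went the other way. Its FPKM was 154, 156, 161 and 166 in resident macrophages, 145, 148 and 154 in control TAM and 137, 142 and 140 in cKO-labelled TAM. The fall in control TAM was small (-0.10 ± 0.03, adjusted p = 0.0151), and it became a rise of 0.11 (adjusted p = 0.00663) when libraries were rescaled to the same total FPKM, and 0.02 when that total left out the acinar genes. The call was also lost without resident replicate 4 (adjusted p = 0.0542) and without control TAM replicate 1 (adjusted p = 0.079). Sdhb, the iron-sulphur subunit, and Sdhc, the other anchor, rose by 0.32 and 0.28.

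All 8 complex III genes rose in control TAM, by 0.21 (Uqcr11) to 0.70 (Uqcrfs1). Uqcrfs1, the Rieske iron-sulphur protein that hands electrons to cytochrome c1, was at 56.7, 59.4, 55.3 and 55.7 FPKM in resident macrophages, 95.5, 93.2 and 89.7 in control TAM and 97.0, 99.9 and 97.1 in cKO-labelled TAM (0.70 ± 0.04, limma adjusted p = 3.97e-11). All TAM libraries were far above all resident libraries. Uqcrc1, a core protein of the matrix side and the most abundant member of the complex on the FPKM scale, was at 180, 177, 168 and 171 in resident macrophages, 219, 217 and 210 in control TAM and 229, 223 and 216 in cKO-labelled TAM (0.31 ± 0.03, adjusted p = 4.50e-07). The rise of Uqcr11, the smallest subunit, became -0.04 when the trend on transcript length was removed.

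Complex IV, cytochrome c oxidase, has subunits with paralogues that differ between tissues. Cox7b, which has none in this table, was at 55.1, 49.3, 54.3 and 55.0 FPKM in resident macrophages, 95.8, 96.0 and 102 in control TAM and 91.7, 108 and 107 in cKO-labelled TAM. It had the largest rise of the complex (0.86 ± 0.06, limma adjusted p = 6.50e-10), and every TAM library was above every resident library. The widely expressed forms of the subunits with paralogues rose. Cox4i1, the most abundant subunit on the FPKM scale, was at 310, 287, 274 and 280 in resident macrophages, 384, 404 and 387 in control TAM and 385, 429 and 390 in cKO-labelled TAM (0.45 ± 0.04, adjusted p = 1.31e-07). Cox6a1 was at 300.4, 252, 253 and 272, at 333, 340 and 365, and at 373, 411 and 375 in the same order (0.36 ± 0.06). Cox6b1 was at 271, 231, 227 and 246, at 330, 334 and 348, and at 355, 408 and 380 (0.47 ± 0.05). These subunits are part of the nuclear-encoded shell around the catalytic core, and for each of the 3 genes every TAM library was above every resident library. The same held for Cox7a2, at 97.2, 79.3, 80.3 and 89.8, at 131, 140 and 143, and at 139, 162 and 153 (0.67 ± 0.07). It held too for Cox8a, at 228, 192, 185 and 212, at 306, 316 and 312, and at 332, 368 and 345 (0.61 ± 0.06). The paralogues known from other tissues were low. Cox7a1, the heart and muscle form, was at 5.03, 1.52, 3.75 and 3.70 FPKM in resident macrophages, 6.25, 7.13 and 5.49 in control TAM and 3.84, 6.23 and 4.67 in cKO-labelled TAM, and rose in control TAM (0.76 ± 0.21, adjusted p = 0.00443). Cox6b2, the testis form, was at 3.56, 3.31, 1.98 and 4.43 FPKM, 0.930, 2.36 and 1.82, and 1.65, 1.89 and 2.33, and fell (-0.68 ± 0.19, adjusted p = 0.00362). Cox6b2 was thus not separated between the groups, while Cox7a1 in control TAM lay above every resident library. Both rested on few reads, 8 to 58 per library for Cox7a1 and 7 to 39 for Cox6b2. Cox7a2l, which takes part in supercomplexes of complexes III and IV, was not called, with 30.4, 28.2, 33.1 and 33.0 FPKM in resident macrophages, 30.7, 32.8 and 31.4 in control TAM and 30.9, 32.6 and 32.6 in cKO-labelled TAM. Its log2 change of 0.02 became -0.15 with the trend on transcript length removed, and it was called as higher (0.23, adjusted p = 0.00125) after rescaling to the same total.

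Complex V had the highest median change. All 14 of its subunits rose: the 5 of the F1 head and central stalk by 0.39 to 0.69, the 4 of the peripheral stalk by 0.31 to 0.77, the 2 measured genes for subunit c of the rotor ring by 0.61 and 0.97, and 3 membrane subunits (Atp5j2, Atp5k and Atp5l) by 0.17 to 1.03. Atp5b, the catalytic beta subunit and the most abundant of the 78 genes on the FPKM scale, was at 435, 452, 444 and 433 in resident macrophages, 685, 687 and 680 in control TAM and 633, 622 and 620 in cKO-labelled TAM. It rose by 0.63 ± 0.03 in control TAM (limma adjusted p = 1.44e-12), and the 3 groups did not overlap. Atp5g3, a subunit c gene, was at 146, 133, 135 and 137 FPKM, 268, 273 and 268, and 242, 258 and 254 in the 3 groups (0.97 ± 0.04, adjusted p = 4.24e-13). The control TAM mean was 1.96 times the resident mean, and the groups did not overlap. Atp5l, a membrane subunit of the dimer interface, had the largest log2 change (1.03 ± 0.13, adjusted p = 2.51e-06) from 8.15, 7.41, 5.02 and 6.25 FPKM to 17.8, 11.6 and 15, with 11.8, 12.1 and 11.7 in cKO-labelled TAM. The TAM groups overlapped for it. Atp5g1, another subunit c gene, was low on this scale, at 0.898, 1.06, 1.09 and 0.931 FPKM in resident macrophages, 1.96, 2.24 and 1.92 in control TAM and 2.10, 2.03 and 1.76 in cKO-labelled TAM. The FPKM of Atp5l, Atp5g1, Ndufb2 and Cox6c are low in part by construction, because the lengths that turn them back into whole reads are those of the longest annotated transcripts (6310, 4715, 4371 and 3038 nucleotides). Atp5sl, which is not a subunit of ATP synthase, fell from 9.96 ± 0.515 to 7.75 ± 0.335, and Atp5s, a factor for its coupling, was not called.

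**Figure D1:**
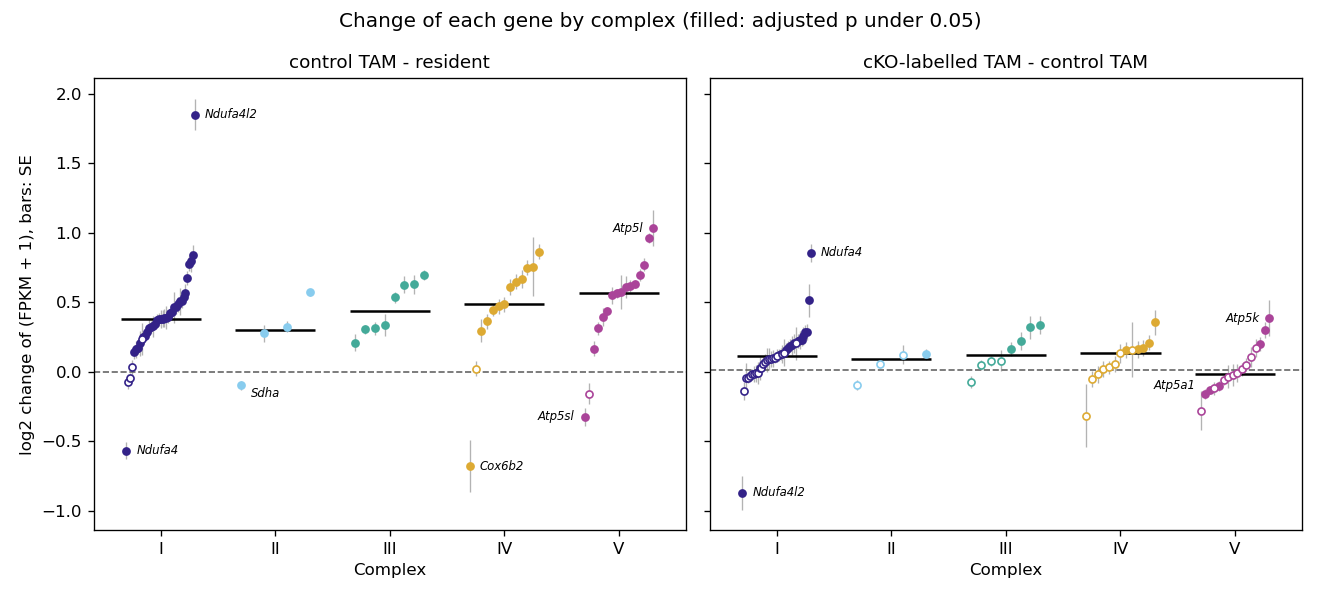
Log2 change of each gene (points, with SE bars) by complex for control TAM minus resident macrophages and cKO-labelled TAM minus control TAM, filled where the adjusted p was under 0.05, with black bars for the median of each complex and a dashed line for that of all tested genes. On the left most points of all 5 complexes lie above the line with Ndufa4 at -0.57, and on the right points scatter near the line with Ndufa4 at 0.86 and Ndufa4l2 at -0.87.

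Ndufa4 (chr6:11900292-11907497, minus strand, GRCm38) was long counted as a complex I subunit, as its name and the rule have it, and is known today to sit in complex IV. Among members at 10 FPKM or more it had the largest fall in control TAM. Its FPKM was 72.6, 68.5, 68.3 and 72.3 in resident macrophages, 43.1, 47.9 and 50.8 in control TAM and 77.6, 93.4 and 88.4 in cKO-labelled TAM. The 3 groups did not overlap. It fell by 0.57 ± 0.06 from resident macrophages to control TAM (limma adjusted p = 3.48e-07) and was higher by 0.86 ± 0.06 in cKO-labelled than in control TAM (adjusted p = 7.19e-08), or 1.83-fold. Both calls held at the same threshold under every other scaling, filter and pseudocount, with the length trend removed and without any 1 library, with log2 changes from -0.72 to -0.36 and from 0.75 to 0.93. Its rise in cKO-labelled TAM over resident macrophages (0.29, adjusted p = 0.000443) was not called with the length trend removed (0.04, adjusted p = 0.572). No other member had control TAM lowest, resident macrophages next and cKO-labelled TAM highest without overlap, an order that 0.6% of the tested genes had.

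Its relatives moved the other way. Ndufa4l2 (chr10:127514967-127517154, plus strand), a paralogue known as a hypoxia-induced gene that lowers complex I activity, was at 0.0748, 0.192, 0.345 and 0.277 FPKM in resident macrophages, which is 1, 2, 4 and 4 recovered reads. It was at 2.91, 4.01 and 3.33 FPKM in control TAM and 1.38, 1.09 and 1.79 in cKO-labelled TAM. It rose by 1.85 ± 0.11 on the log2(FPKM + 1) scale in control TAM (limma adjusted p = 3.08e-10) and fell by 0.87 ± 0.12 from control to cKO-labelled TAM (adjusted p = 4.01e-05), with no overlap of the groups. AA467197, also called Nmes1, is outside the rule and was chosen after its values were seen. It is the mouse counterpart of human C15orf48, a small NDUFA4 paralogue known to take its place in complex IV during inflammation. Its gene lies at chr2:122636986-122641191 (plus strand), and an exon of it at chr2:122640701-122641191 holds the microRNA gene Mir147 (chr2:122640803-122640881), whose human counterpart is known to target NDUFA4 mRNA. AA467197 was at 0.0906, 0.350, 0.627 and 0.252 FPKM (1 to 6 recovered reads) in resident macrophages, 157, 153 and 163 in control TAM, and 88.6, 95.2 and 89.0 in cKO-labelled TAM. The resident group was near 0, control TAM highest and cKO-labelled TAM between them, with no overlap. The fall from control to cKO-labelled TAM was 0.79 ± 0.10 (adjusted p = 1.92e-05), and its size was -0.91 to -0.76 over all alternatives. With a pseudocount of 0.1 the change was the same (-0.79) with an adjusted p of 0.06. Ndufa4 was thus lowest in the group in which Ndufa4l2 and AA467197 were highest, which 3 groups give as a description and not as a test.

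**Figure D2:**
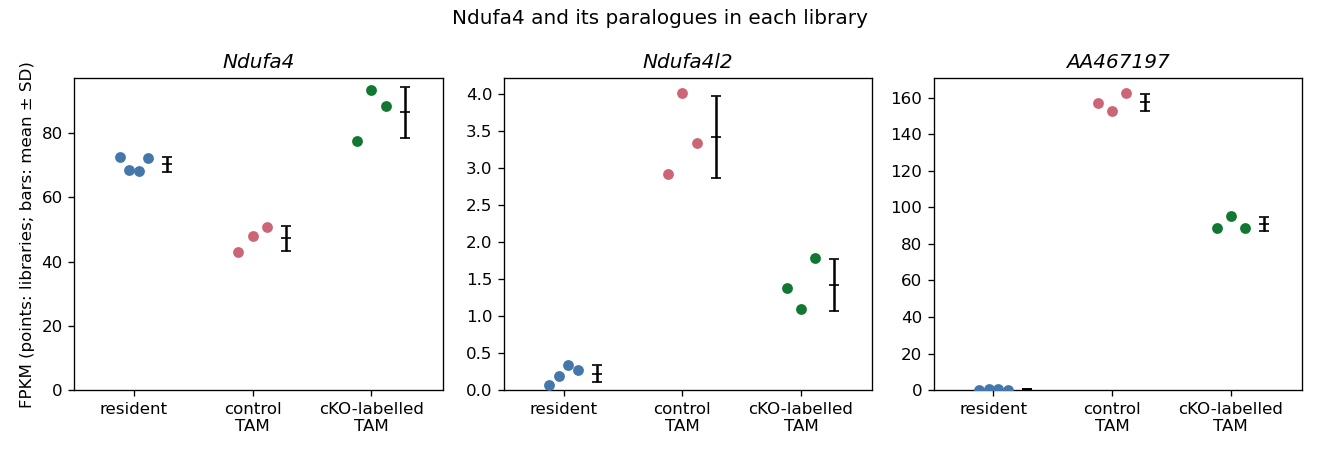
FPKM of Ndufa4, Ndufa4l2 and AA467197 in each library (points) of the 3 groups, with the group mean and SD (bars) and axes from 0. Control TAM is lowest for Ndufa4, at 43.1 to 50.8, and highest for the other pair, at 2.91 to 4.01 and 153 to 163.

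The comparison of the TAM groups asks what changes with the Lys M label. Effects on the chain were small and mixed: 28 of 78 genes were higher and 4 lower in cKO-labelled than in control TAM, and 46 were not called. Of all tested genes 39.6% were called, 20.5% as higher and 19.1% as lower. The median log2 change was 0.09 over the members and 0.01 over all genes, and 41 members had no overlap of the groups, against 51.4% of tested genes. Ndufa4 was the only member that was at least 1.5-fold higher and Ndufa4l2 the only one as much lower. The 2 comparisons share the control TAM libraries, so their values are given side by side and not related to each other. By complex, 15 were higher and 1 lower in complex I, 1 and 0 in complex II, 4 and 0 in complex III, 5 and 0 in complex IV, and 3 and 3 in complex V. The medians were 0.12, 0.09, 0.12, 0.13 and -0.02.

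The split depended on scaling. After rescaling to the same total FPKM, 13 members were higher and 12 lower, while the calls over all genes went from 51.8% to 32.8% higher. With quantile normalization there were 20 and 6. Under these settings and 2 more scalings the median of complex V stayed at or below -0.02 and those of the other complexes at or above 0.01, and with the length trend removed that of complex II was -0.01 and that of complex IV 0.00. It also depended on a single library: cKO-labelled TAM replicate 2 was the highest of its group in 56 of 78 members and in 35.5% of tested genes, and without it 15 were higher and 4 lower. Without control TAM replicate 1 there were 18 and 4. In all scalings and with the length trend removed, 9 of the 28 rises (Ndufa3, Ndufa4, Ndufa6, Ndufa7, Ndufb10, Uqcr10, Uqcr11, Cox7c and Atp5j2) and 4 of 4 falls (Ndufa4l2, Atp5a1, Atp5b and Atp5g3) remained.

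The largest rises after that of Ndufa4 were those of small subunits. Ndufa3, an accessory subunit of complex I, was at 71.0, 61.8, 56.8 and 71.3 FPKM in resident macrophages, 77.2, 66.4 and 87.7 in control TAM and 91.6, 134 and 108 in cKO-labelled TAM (0.51 ± 0.12 between the TAM groups, limma adjusted p = 0.00330). The cKO-labelled libraries lay above all others, and the other groups overlapped. Uqcr11 was at 109, 103, 97.2 and 115 FPKM in resident macrophages, 116, 121 and 131 in control TAM and 146, 169 and 150.3 in cKO-labelled TAM (0.33 ± 0.06, adjusted p = 0.000770). Cox7c was at 8.61, 6.64, 6.07 and 7.22, at 8.88, 8.36 and 9.58, and at 11.4, 11.8 and 11.8 (0.36 ± 0.09, adjusted p = 0.00628). For both genes every cKO-labelled library was above every other library. Of the 50-base stretches of Cox7c, 27.9% also occur in transcripts of other genes, so its level is uncertain. Atp5k was at 33.4, 23.4, 23.2 and 32.4 FPKM, at 36.3, 43.5 and 46.0, and at 49.4, 61.3 and 54.6. Its groups were in that order without overlap, and its rise between the TAM groups (0.39 ± 0.13, adjusted p = 0.0251) was not called without control TAM replicate 1 (adjusted p = 0.118), without cKO-labelled TAM replicate 2 (0.109) or 3 (0.0548), or with the length trend removed (0.0801). In complex II, Sdhb was at 179, 164, 174 and 169 FPKM, 217, 224 and 206, and 234, 244 and 227, and its small rise between the TAM groups (0.13 ± 0.04, adjusted p = 0.0222) was lost after rescaling (adjusted p = 0.336), without control TAM replicate 3 (0.107) and without cKO-labelled TAM replicate 2 (0.105). Sdha missed the threshold there (-0.09, adjusted p = 0.05), and was called as lower in 11 of the alternatives, after rescaling with -0.17 and an adjusted p of 0.00157. The rises of Cox6a1, Cox6b1 and Cox8a (0.16, 0.17 and 0.16) were not called after rescaling, with the replicate block or without control TAM replicate 1 or 2 or cKO-labelled TAM replicate 2 or 3.

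Of the 4 falls, that of Ndufa4l2 was the largest, and the other 3 were of ATP synthase genes. Atp5a1, the alpha subunit of F1, was at 243, 248, 242 and 236 FPKM in resident macrophages, 334, 337 and 312 in control TAM and 296, 293 and 290.4 in cKO-labelled TAM. It was lower by a small step in cKO-labelled TAM (-0.16 ± 0.03, limma adjusted p = 0.00157), and every library of that group lay between the other 2 groups. Atp5b, with the values above, changed by -0.13 ± 0.03 (adjusted p = 0.00143). Atp5g3 changed by -0.10 ± 0.04 (adjusted p = 0.0409), a call that was lost without resident replicate 4, without each control TAM library in turn and without cKO-labelled TAM replicate 1 or 3 (adjusted p from 0.052 to 0.16). Of the 5 F1 subunits none was higher, 2 were lower, and the gamma and delta subunits Atp5c1 and Atp5d were not called (-0.06 and -0.12). The epsilon subunit Atp5e was not called either, with 45.1, 42.5 and 44.2 FPKM in control TAM and 45.2, 49.4 and 47.6 in cKO-labelled TAM (0.11), the higher group here being cKO-labelled TAM, without overlap.

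Transcript length moved with this comparison. Over the members, the rank correlation of the log2 change with the length of the principal transcript was -0.51 (n = 78 genes of the same libraries), and -0.33 over 10662 tested genes. Members up to 700 nucleotides had a median of 0.16, against 0.19 for all genes of that length, and 17 of 29 (58.6%) were higher, against 50%. Over 700 and up to 1000 nucleotides the medians were 0.11 and 0.12, and 5 of 16 members (31.2%) were higher, against 37.9%. Over 1000 and up to 2000 they were 0.02 and 0.10, and 5 of 25 (20%) were higher, against 33.6%. Over 2000 they were -0.04 and -0.03, and 1 of 8 (12.5%) was higher, against 14.2%. The members' median was thus below that of all genes in each range, by most over 1000 and up to 2000 nucleotides. Between control TAM and resident macrophages the correlation was 0.01 over the members and -0.12 over all genes, and in each length range the members' median (0.35 to 0.54) was above that of all genes (-0.04 to 0.24). What set the trend, in cells or in library making, was not tested. Results with the length trend removed used the longest annotated transcript instead, so they do not remove exactly this trend. The lengths can differ widely, as for Atp5l (6310 nucleotides for the longest and 544 for the principal transcript).

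**Figure D3:**
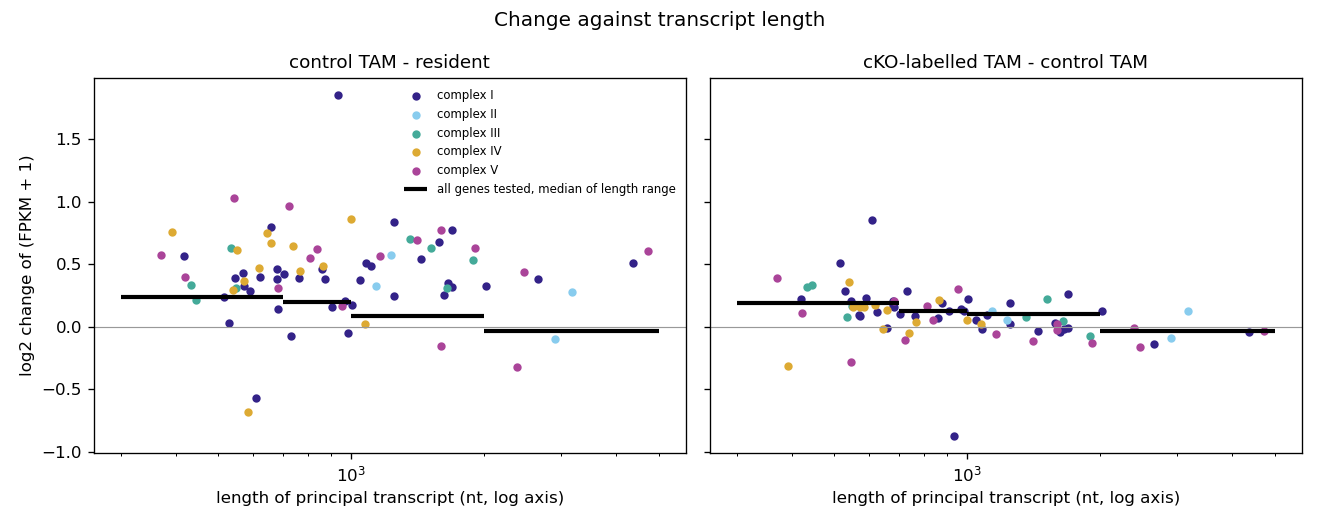
Log2 change of each gene (points, coloured by complex) against the length of its principal transcript in nucleotides (log axis), for control TAM minus resident macrophages and for cKO-labelled minus control TAM, with the median of all tested genes in 4 length ranges (bars). On the left most points lie above the bars at all lengths, and on the right points and bars fall together from about 0.19 at the shortest to -0.03 at the longest range.

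Transcripts of other cell types also differed between the TAM groups. In cKO-labelled TAM 16 of 16 tested acinar genes were higher, and 5 of 7 neutrophil genes were higher and 1 lower. Of 10 macrophage markers 1 was higher and 6 were lower. Of T and natural killer cell genes 5 of 7 were higher, and of endothelial genes 3 of 3. Of eosinophil, dendritic and B cell genes 2 of 3 each were higher, and no gene of these lists was lower. Epithelial genes had 3 of 9 higher and 1 lower, and fibroblast genes 3 of 6 higher and 2 lower. Of all tested genes 20.5% were called as higher and 19.1% as lower. In control TAM against resident macrophages 16 of 16 acinar genes were lower and 7 of 7 neutrophil genes higher. Of the 10 macrophage markers 4 were higher and 6 lower. Higher too were 9 of 9 epithelial, 3 of 3 eosinophil, 5 of 6 fibroblast and 2 of 3 endothelial genes, with none lower. T and natural killer cell genes had 5 of 7 higher and 1 lower. Lower were 3 of 3 B cell and 2 of 3 dendritic genes. The shares of all tested genes were 39.0% higher and 38.1% lower. The part of these transcripts in the members' changes was not tested, other than by the totals without acinar genes, under which 12 members were higher and 12 lower between the TAM groups.

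Against resident macrophages, cKO-labelled TAM had 71 of 78 genes higher and 4 lower (Sdha, Cox6b2, Atp5s and Atp5sl), with a median log2 change of 0.52, against 0.02 for all genes. Of all tested genes 77.4% were called, 40.2% as higher and 37.2% as lower. Values did not overlap for 72 members, against 75.5% of tested genes. With the length trend removed, 62 were higher and 7 lower. In complex I, 36 of 37 were higher, and Ndufs7 (0.08) was not called. Ordered by group without overlap, 23 members rose from resident macrophages to control TAM to cKO-labelled TAM, an order of 7.0% of tested genes. Among them were 9 of complex I, Sdhb, Sdhc and Sdhd, 5 of complex III, Cox6a1, Cox6b1 and Cox8a, and Atp5e, Atp5h and Atp5k. In 8 members control TAM was highest and resident macrophages lowest (10.6% of tested genes): Ndufa4l2, Ndufa9, Uqcrc2, Atp5a1, Atp5b, Atp5c1, Atp5d and Atp5g3. In 31 members both TAM groups were above resident macrophages and overlapped with each other (14.8% of tested genes). Sdha and Atp5sl were below the resident group in both TAM groups, the order of 30.8% of tested genes. The other 13, aside from Ndufa4, had another order or overlapped.

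Summing over subunits weights abundant genes. Complex I (37 genes, with Ndufa4 and Ndufa4l2) was at 2155 to 2317 FPKM in resident macrophages, 2701 to 2808 in control TAM and 2922 to 3220 in cKO-labelled TAM. Complex II was at 496 to 519, 616 to 633 and 637 to 655, and complex III at 648 to 704, 879 to 925 and 964 to 1072. Complex IV was at 1261 to 1465, 1859 to 1935 and 1954 to 2187. In complexes I to IV every cKO-labelled library was above every control TAM library. Complex V (14 genes, without Atp5s and Atp5sl) was at 1403 to 1454, 2171 to 2185 and 2062 to 2151, so its order of the TAM groups was the reverse, also without overlap. The ratio of group means of control TAM to resident macrophages was 1.24, 1.22, 1.33, 1.43 and 1.53 for complexes I to V, and that of cKO-labelled to control TAM was 1.12, 1.04, 1.11, 1.08 and 0.968. Total FPKM itself was 529066 to 544670, 459374 to 463004 and 482447 to 493850 in the 3 groups. As a percentage of it, complexes I, III and IV overlapped between the TAM groups. Complex II turned round and was slightly lower in cKO-labelled TAM (0.1320% to 0.1326%) than in control TAM (0.1330% to 0.1372%). Complex V kept its order, at 0.470% to 0.474% in control TAM and 0.427% to 0.436% in cKO-labelled TAM, with 0.265% to 0.268% in resident macrophages. The sums carry no test.

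**Figure D4:**
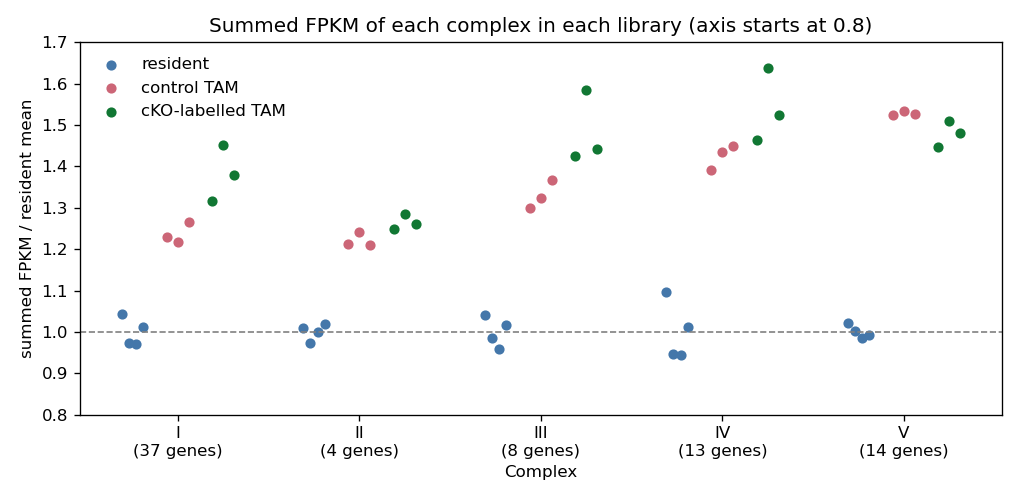
Summed FPKM of the subunits of each complex in each library (points), divided by the mean of the 4 resident libraries, with the axis starting at 0.8. Both TAM groups lie above the resident group in all 5 complexes, and cKO-labelled TAM lies above control TAM in complexes I to IV and below it in complex V.

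Of 46 tested assembly factors, which help build the complexes without being subunits, 17 (37.0%) were higher and 7 (15.2%) lower in control TAM than in resident macrophages (median log2 change 0.15). The share that was higher was near the 39.0% of all tested genes, and the share that was lower was under their 38.1%. Between the TAM groups 13 (28.3%) were higher and 5 (10.9%) lower (0.12), against 20.5% and 19.1% of all tested genes. Coa5, needed to assemble complex IV, was at 19.4, 19.4, 21.9 and 22.3 FPKM in resident macrophages, 40.7, 37.8 and 40.9 in control TAM and 28.6, 29.1 and 30.1 in cKO-labelled TAM, with no overlap of the 3 groups. Its changes were 0.91 ± 0.05 and -0.43 ± 0.06 (limma adjusted p = 2.90e-10 and 3.76e-05). Ndufaf7, a methyltransferase that acts during complex I assembly, fell from 15.8 ± 0.843 to 8.45 ± 0.689 FPKM (-0.83), and Surf1, an assembly factor of complex IV, from 36.8 ± 2.26 to 28.6 ± 1.37 (-0.35). The other factors with the largest changes of their lists in control TAM were Ndufaf3 (0.57), Sdhaf1 (0.25), Uqcc3 (-0.23) and Tmem242 (-0.54). Between the TAM groups they were Ndufaf2 (0.35), Taco1 (0.40) and Timmdc1 (-0.31). Timmdc1 was low, at 1.06 to 1.51 FPKM in control TAM and 0.628 to 1.12 in cKO-labelled TAM, and these groups overlapped. Uqcc2, for complex III, rose from 41.6 ± 1.48 to 62.3 ± 4.84 (0.57). Sdhaf4, which helps load Sdha, was at 26.8 to 34.4 FPKM in resident macrophages, 22.0 to 25.5 in control TAM and 29.2 to 32.9 in cKO-labelled TAM (-0.32 and 0.38). Like Ndufa4 it was lowest in control TAM, though its other groups overlapped.

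A further list held 9 tested genes outside the rule, for subunits, carriers and associated proteins such as Atpif1, Higd1a and Higd2a. Of these, 5 (55.6%) were higher and 2 (22.2%) lower in control TAM, against 39.0% and 38.1% of all tested genes. In cKO-labelled against control TAM 6 (66.7%) were higher and 0 lower, against 20.5% and 19.1%. Cyc1, cytochrome c1 of complex III, was at 123, 116, 115 and 116 FPKM, at 165, 160 and 159, and at 179, 178 and 177 in the 3 groups (0.45 and 0.14, limma adjusted p = 1.80e-09 and 0.00340). Its groups rose in the same order as those of 5 complex III members. Cycs, cytochrome c, was low on this scale at 0.447 to 1.06, 1.01 to 1.68 and 1.34 to 1.45 FPKM. Ndufab1, the mitochondrial acyl carrier protein in complex I, was at 5.38 to 6.54, 5.82 to 6.08 and 6.61 to 7.65. As for Atp5l, these values may be low in part by construction, with longest annotated transcripts of 3123 and 3479 nucleotides. Stretches shared with other genes were not counted for this pair. Atpif1, the inhibitor of ATP synthase, was not called in control TAM (0.05) and was higher in cKO-labelled than in control TAM (0.27, adjusted p = 0.00238). Higd1a and Higd2a, which bind complexes III and IV, moved apart. Higd1a, a hypoxia-induced gene, rose from 5.64 ± 0.407 to 20.2 ± 1.04 FPKM in control TAM (1.67), and Higd2a fell from 91.5 ± 3.61 to 68.7 ± 0.631 (-0.41).

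Regulators of mitochondrial gene expression were mostly not called. Of 18 tested, 3 were higher and 3 lower in control TAM (16.7% each, below the shares of all genes). Between the TAM groups 3 (16.7%) were higher and 1 (5.6%) lower in cKO-labelled TAM, against 20.5% and 19.1% of all tested genes. Nrf1 (-0.08), Gabpa (0.06), Yy1 (-0.02) and Tfam (0.10), whose proteins drive transcription of nuclear or mitochondrial subunit genes, were not called in control TAM. Myc rose from 16.8 ± 0.640 to 30.8 ± 1.60 FPKM (0.84), and Polg2, the accessory subunit of the mitochondrial DNA polymerase, fell from 3.62 ± 0.8 to 1.62 ± 0.269 (-0.80). Its catalytic partner Polg fell too (-0.64). Between the TAM groups Slirp (0.27), Esrra (0.25), the gene of the estrogen-related receptor ERR alpha, and Yy1 (0.22) were higher and Gabpa (-0.22) was lower.

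The mitophagy and hypoxia list, which holds Ndufa4l2 and Higd1a as well, had 7 of 10 tested genes higher and 2 lower in control TAM, and 2 higher and 6 lower in cKO-labelled than in control TAM, against 39.0% and 38.1% and against 20.5% and 19.1% of all tested genes. Bnip3, a mitophagy receptor induced by hypoxia, was at 4.62, 4.57, 4.8 and 5 FPKM in resident macrophages, 38.8, 34.8 and 38.8 in control TAM and 26.2, 25.6 and 27.5 in cKO-labelled TAM (2.74 and -0.48, limma adjusted p = 1.45e-16 and 9.90e-06). Pdk1, the kinase that shuts pyruvate dehydrogenase, had the same order with 5.96 ± 0.4, 23.2 ± 0.813 and 14.5 ± 1.23 FPKM (1.80 and -0.64). Pink1, which starts another mitophagy route, went the opposite way from 126 ± 3.92 to 39.4 ± 1.62 and 45.4 ± 3.46 FPKM (-1.65 and 0.20). Siah2, a ubiquitin ligase, was at 16.8 to 19.2, 15 to 16.4 and 20.9 to 22.7 FPKM. It was lowest in control TAM and highest in cKO-labelled TAM without overlap, the order of Ndufa4.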

How the data were processed

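RNA-seq of 10 libraries was used. RNA was extracted with either of 2 kits and made into SMART-Seq v4 and Nextera XT libraries, which do not mark strand, per the labels' protocols. They do not say which kit a library had, so effects of kit and group cannot be told apart. The authors deposited 1 table of FPKM. The tools STAR and edgeR are listed, as are mm10 and GRCm38 as genome builds, in the submitters' processing notes, without their roles. Versions, gene lengths, filters and the handling of reads that map to several genes were not given in the sources used here.

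Reads were recovered from FPKM with the longest GENCODE M21 transcript as length (85.8% to 87.1% of values of 1 to 200 reads came out whole within 0.05) and served as depth only. Pairs of libraries of a group differed by 1.79 to 3.04 times counting noise (median squared difference). Each library was counted as 1 replicate, though this spread cannot show that libraries came from separate mice. Genes with FPKM of at least 1 in at least 3 libraries (11127) were fitted with limma 3.58.1 in R 4.3.3 on log2(FPKM + 1), 1 mean per group over all libraries, with a variance trend and Benjamini-Hochberg adjustment at 0.05. This scale understates changes of low genes. The fit was also run on simulated data in which few genes changed, unlike these data, so that run does not bear on the calls given here. Coordinates are 1-based GRCm38; promoters are from RefSeq.

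The members and lists were chosen with earlier results of these data known. Named genes are, per complex, the largest rise and fall in each of the first 2 comparisons among called genes with 10 FPKM or more in the higher group, paralogue sets and the most abundant member, and of related lists the largest rise and fall, with Cycs, Cyc1 and Ndufab1. Other genes, AA467197 included, were picked with their values known. The alternatives were other pseudocounts, filters and scalings, the replicate number as a block, only the 2 groups compared, a 1.5-fold limit, leaving out each library and, chosen after seeing the data, removal of the trend on transcript length. That removal used the longest annotated transcript, whereas the correlations and length ranges used the principal transcript. Some members' own values are not reported here, though all are counted in the totals.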

Additional observations from a re-analysis of the deposited data

Results flagged for a closer look

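Among the 78 genes, 3 had a resident library far from the other resident libraries, by Dixon's ratio of its gap to the range of the 4 values at the 95% level. About 1 gene in 20 would show this by chance. Ndufc2, a membrane-arm subunit of complex I, was at 80.0 FPKM in resident replicate 3 and at 76.2 to 76.5 in the others. Ndufs1, the largest core subunit of complex I, was at 27.0 FPKM in resident replicate 1 and at 31.6 to 32.2 in the others. Cox7b of complex IV was at 49.3 FPKM in resident replicate 2 and at 54.3 to 55.1 in the others. The 3 libraries were different ones, and TAM groups of 3 libraries were not tested in this way.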

How the results depend on the processing

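For control TAM against resident macrophages (68 members higher, 4 lower), leaving out each library gave 66 to 68 higher, 3 to 5 lower and 69 to 73 called. Rescaling to the same total left 2 lower, removal of the length trend 9 lower, and a 1.5-fold limit 21 higher, 1 lower and 22 called. Rescaling moved the median of all genes by 0.18 and the share of calls that were higher from 50.6% to 66.2%. For cKO-labelled against control TAM (28 higher, 4 lower), leaving out each library gave 15 to 31 higher, 3 to 7 lower and 19 to 38 called. Rescaling gave 13 higher and 12 lower, totals without the acinar genes 12 and 12, removal of the length trend 10 and 11 (21 called), and a 1.5-fold limit 1 and 1 (2 called). For cKO-labelled TAM against resident macrophages (71 higher, 4 lower), leaving out each library gave 71 to 73 higher, 2 to 4 lower and 73 to 77 called. Rescaling and the replicate block each left 2 lower, removal of the length trend 7, and a 1.5-fold limit 28 higher, 0 lower and 28 called. The cause of these shifts was not tested. Reversed values were those of Sdha in control TAM (0.11 after rescaling, 0.02 without the acinar genes), Uqcr11 in control TAM (-0.04) and Cox7a2l in control (-0.15) and cKO-labelled TAM (-0.23) against resident macrophages, all 3 with the length trend removed. Of the other values of single genes under alternatives, 1597 kept their side of the threshold, 69 lost the call and 21 gained one. The labels do not say whether replicate numbers pair libraries. Deviations of same-numbered libraries correlated at -0.06 to 0.11, and those of different-numbered libraries at -0.15 to 0.13. With the replicate block 67 members were higher and 4 lower in control TAM against resident macrophages, and 26 and 4 between the TAM groups. In all settings but the 1.5-fold limit, 58 of the 68 rises in control TAM remained, with Ndufa4 and Cox6b2 of the 4 falls. Between the TAM groups 9 of 28 rises and 3 of 4 falls remained. Depth limits Ndufa4l2, Cox6b2 and Cox7a1, with 1 to 58 reads per library.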
